A study of Mus musculus with 2 samples.

Results

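Egr1, Nr4a1, Ier2, Ier5, Dusp1 and Klf6 are immediate early genes, and their transcripts were followed in RAW264.7 cells, a mouse macrophage-like line that can form osteoclasts. The 6 genes were taken by symbol from a table of 18987 genes, and each symbol matched 1 row. They were chosen by their ratio between these libraries, which was already known, so that ratio is given as a description. The study held 2 libraries. In 1 the cells carried a control shRNA (control), and in the other an shRNA against Cpeb4 (knockdown). Cpeb4 encodes an RNA-binding protein of the cytoplasmic polyadenylation family. Both cultures had received 100 ng/ml RANKL, the osteoclast-inducing cytokine, 24 h after seeding at 7500 cells per cm2, and were collected on day 3. No culture without RANKL and no earlier time was analysed here. With 1 library per group there is no spread between replicates, and no test was made.

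Immediate early genes are transcribed within minutes of a stimulus without new protein synthesis, through factors such as SRF with its ETS partners and CREB that are already in the nucleus. Growth factor, cytokine and stress signals reach these factors through the MAP kinases ERK, p38 and JNK. The transcripts are short-lived, and many carry AU-rich elements in the 3′ UTR that recruit decay factors. In macrophages and osteoclast precursors, M-CSF and RANKL are both known to activate these kinases.

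Promoters were available from RefSeq (GRCm38.p6) for 4 of the 6 genes, namely Nr4a1, Ier5, Dusp1 and Klf6. Of these, 3 are shown because they belong to the gene with the lowest ratio among the 4 (Nr4a1) and the pair with ratios above 0 (Dusp1, Ier5). Each run is the 250 bases before the annotated start, 5′ to 3′ on the gene's strand. Capitals mark matches on either strand to the CREB half-site CGTCA, the full CREB site TGACGTCA, which contains that half-site on both strands, or the EGR motif GCGGGGGCG.
Nr4a1 (chr15:101266596-101266845, plus strand): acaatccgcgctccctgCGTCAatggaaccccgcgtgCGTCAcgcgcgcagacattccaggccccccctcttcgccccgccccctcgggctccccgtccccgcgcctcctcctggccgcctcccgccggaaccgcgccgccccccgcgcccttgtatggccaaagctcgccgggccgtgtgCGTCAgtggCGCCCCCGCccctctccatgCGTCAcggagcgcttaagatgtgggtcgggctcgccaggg
Dusp1 (chr17:26508473-26508722, minus strand): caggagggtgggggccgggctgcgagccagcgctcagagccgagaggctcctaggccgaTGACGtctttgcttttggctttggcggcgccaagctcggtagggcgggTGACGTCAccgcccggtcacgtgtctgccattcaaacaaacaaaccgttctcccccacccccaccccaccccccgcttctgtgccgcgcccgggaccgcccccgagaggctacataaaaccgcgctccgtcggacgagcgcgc
Ier5 (chr1:155099637-155099886, minus strand): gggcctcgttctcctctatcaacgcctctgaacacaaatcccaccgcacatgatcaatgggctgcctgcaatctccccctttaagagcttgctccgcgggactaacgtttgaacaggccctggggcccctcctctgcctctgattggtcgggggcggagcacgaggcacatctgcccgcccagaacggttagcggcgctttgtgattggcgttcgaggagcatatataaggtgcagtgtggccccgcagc

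The Nr4a1 promoter held 4 CGTCA matches, the nearest 40 to 36 bases before the start. It also held 1 EGR motif, 60 to 52 bases before it. Dusp1 held 1 TGACGTCA, 143 to 136 bases before the start, and a further CGTCA match on the opposite strand 191 to 187 bases before it. In the Ier5 and Klf6 windows none of these letters was found. The CArG box, the sequence that SRF binds, was searched only as its exact consensus and was found in none of the 4. Sequences that differ from the consensus were not counted. Of 32851 promoter windows of the same length, 17.8% held CGTCA, 0.137% held at least 4 CGTCA matches (0.322% of those of genes past the expression filter), 1.55% held TGACGTCA, 2.57% held the EGR motif and 1.47% a CArG box. CREB half-sites were held by the promoters of Nr4a1 and Dusp1, and by 27.8% of those of genes past the expression filter. A relation between these sites and the ratios was not tested.

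All 6 genes have a 3′ UTR in GENCODE M21 (GRCm38, the assembly that mm10 names), and its short sites are shown for the same 3 genes. These are the AU-rich core ATTTA, its longer form TATTTAT, and the letters TTTTAT and TTTTAAT of the cytoplasmic polyadenylation element that CPEB proteins are known to bind. Capitals mark the match, and positions count from 1 at the base after the stop codon.
Nr4a1 (chr15:101274692-101274716, plus strand), 450 to 454 of the 543-base UTR: acagattctgATTTAtatttgtgta
Nr4a1 (chr15:101274716-101274740, plus strand), 474 to 478: attttcctggATTTAtaggatgtga
Nr4a1 (chr15:101274747-101274771, plus strand), 505 to 509: tgattaatatATTTAatatattgaa
Dusp1 (chr17:26506160-26506183, minus strand), 104 to 113 of the 690-base UTR: tggtcctTATTTATTTAacacccc
Dusp1 (chr17:26505872-26505896, minus strand), 393 to 399: ttttaccttTATTTATttttgtgta
Dusp1 (chr17:26505676-26505700, minus strand), 589 to 595: atgtttgttTATTTATgatctgaag
Dusp1 (chr17:26505613-26505636, minus strand), 653 to 658: gatgactttTTTTATacaacagaa
Ier5 (chr1:155096849-155096873, minus strand), 1641 to 1645 of the 2143-base UTR: ggttggctaaATTTAattctcatgt
Ier5 (chr1:155096751-155096775, minus strand), 1739 to 1743: agccaaggcaATTTAaagagaccgt

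The AU-rich core was found in 5 of the 6 genes, all except Ier2, and in 62.3% of 20749 3′ UTRs. Dusp1 was the densest, with 4 ATTTA in 690 bases (5.80 per kb), of which 2 overlap in its first site. Nr4a1 followed with 3 in 543 bases (5.52 per kb), beside 1.94 per kb over all 3′ UTRs pooled. Klf6 had 7 in 3111 bases, Egr1 had 2 in 1216 and Ier5 had 2 in 2143. TATTTAT occurred 3 times in Dusp1 and 2 times in Klf6, and at least 3 such matches were present in 3.67% of 3′ UTRs. The polyadenylation element letters TTTTAT occurred 5 times in Klf6 and once each in Egr1 and Dusp1. TTTTAAT occurred once, in Klf6. Nr4a1, Ier2 and Ier5 held neither, as did 40.0% of the 3′ UTRs of genes past the expression filter. Egr1, with a TTTTAT, and Nr4a1, without one, were both lower, and a relation between these letters and the ratios was not tested.

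The genes are short. Their main transcripts span 1522 bases (Ier2), 2930 (Dusp1), 3276 (Ier5), 5162 (Egr1), 7950 (Nr4a1) and 8913 (Klf6), all below the median of 21337 for the 10542 protein-coding genes past the filter. Ier2 and Ier5 have 1 exon, as do 2.34% of those genes. Egr1 has 2 exons, Dusp1 and Klf6 have 4, and Nr4a1 has 7, against a median of 9. Their 3′ UTRs range from 543 to 3111 bases around a median of 985, so in that respect they are not alike.

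The control library summed to 79399680 counts and the knockdown library to 119350322. Cpeb4 itself had 25270 and 13491 counts. Its log2 ratio was -1.73, knockdown over control after TMM scaling, as for every log2 ratio here. Pairs of values are given as control, then knockdown. Of 12 osteoclast markers 10 differed by at least 2-fold, each lower after knockdown (83.3%, against 11.8% of all genes past the expression filter). The 12 markers had summed levels of 53304 and 12155 CPM (counts per 1000000 of the scaled library). The labels call the cells macrophages. Csf1r, the M-CSF receptor gene, was at 2736 and 1790 CPM, but Adgre1, the gene of the macrophage marker F4/80, had only 12 and 101 counts, and Mrc1 and Fcgr3 are not analysed here. Of 12 macrophage markers 8 passed the filter. Of these 1 was at least 2-fold lower (12.5%, against 11.8% of all genes) and 0 higher (against 14.6%). By total counts 0 of the markers were lower and 1 was higher. Their summed levels were 4853 and 3121 CPM, to which Csf1r and Cd68 (1174 and 570 CPM, log2 ratio -1.04) gave most. Lyz2 (0.998) and Cd14 (0.35) had ratios above 0. None of the 10 granulocyte and mast cell markers was listed, and of 12 lymphoid markers 2 were, at 13 counts or fewer. Of 13 fibroblast and osteoblast markers 6 were listed, all of them under the filter. The list of 9 dendritic cell genes kept 3, namely Itgax (2584 and 179 counts, log2 ratio -4.67), Irf4 (-1.07) and Zbtb46 (-0.42). At 2-fold 2 of these 3 were lower (66.7%, against 11.8% of all genes, and 1 by total counts). None was higher (against 14.6%). The part that the difference in osteoclast markers has in the values below was not tested.

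The 6 genes did not move as a block. After knockdown Egr1 and Nr4a1 were lower by at least 2-fold, Ier5 was higher by as much, and Ier2, Klf6 and Dusp1 lay within 2-fold. A mean of 1 CPM or more was the filter, and of the 12086 genes that passed it 11.8% were at least 2-fold lower and 14.6% at least 2-fold higher (1421 and 1765 genes, or 1027 and 2510 when scaled by total counts). The median log2 ratio was -0.44 over the 6 genes and 0.05 over all 12086, and it says little, as the 6 genes stretch from -3.59 to 1.18. At a threshold of 1.5-fold Dusp1 joined the higher genes, beside 26.4% of all genes, and still 2 were lower, beside 22.1%. At 4-fold Egr1 and Nr4a1 were both still lower (only Egr1 by total counts), beside 3.52% of all genes, and 0 were higher, beside 4.82%. In bulk RNA, fewer cells that transcribe a gene and less of its RNA per cell cannot be told apart.

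**Figure D1:**
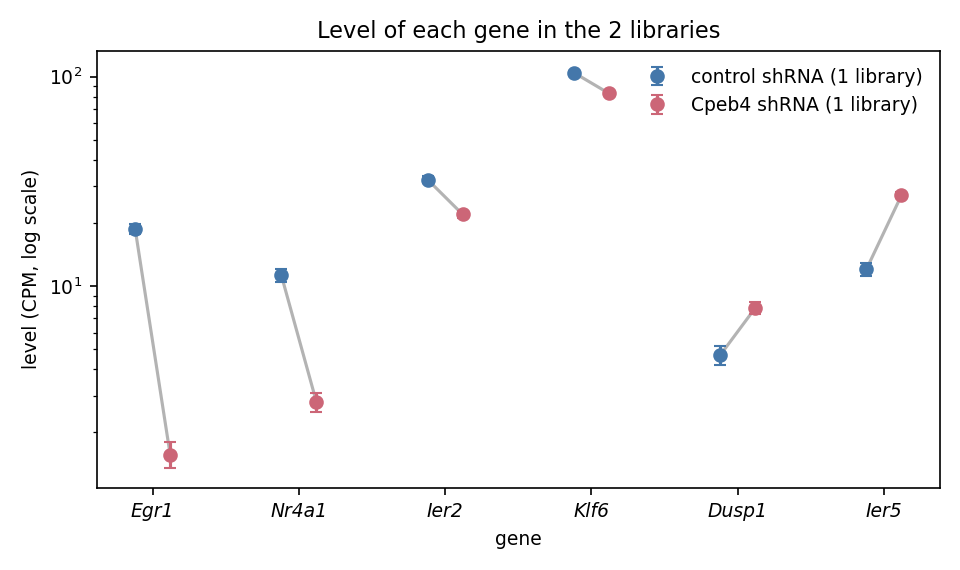
Level of each gene in CPM (log axis) in the control library (blue) and the knockdown library (red), with exact 95% Poisson intervals that cover counting error only and a line joining the 2 libraries. Egr1 and Nr4a1 drop to 1.56 and 2.79 CPM, while Dusp1 and Ier5 climb.

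Egr1 (ENSMUSG00000038418, chromosome 18, 34859823 to 34864984, plus strand) encodes a zinc finger transcription factor that binds GC-rich promoter sites. It had 1375 counts in the control library, or 18.8 CPM. It had 202 counts after knockdown, or 1.56 CPM. The level was 12.0-fold lower in the latter. The log2 ratio was -3.59, with a 95% counting interval from -3.81 to -3.37, which does not cover variation between cultures. Only 96 of the 12086 genes had a lower ratio.

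Nr4a1 (ENSMUSG00000023034, chromosome 15, 101254269 to 101274795, plus strand) encodes the orphan nuclear receptor Nur77, which in osteoclast precursors is known to restrain differentiation. Its counts were 824 with the control shRNA and 361 after knockdown. These were 11.3 and 2.79 CPM, a 4.03-fold lower level (log2 ratio -2.01, counting interval -2.19 to -1.83). Both this gene and the osteoclast markers were thus lower after knockdown, and 418 genes had a ratio below its own.

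Klf6 (ENSMUSG00000000078, chromosome 13, 5861482 to 5870394, plus strand), the gene of a Krüppel-like transcription factor, had the most counts of the 6. They were 7647 and 10758, or 104 CPM in the control library and 83.1 CPM after knockdown. The log2 ratio was -0.33 (-0.37 to -0.29), and -0.10 when the libraries were scaled by their totals. It had the smallest difference of the 3 transcription factor genes.

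The IER genes encode small nuclear proteins named for their rapid induction. Ier2 (ENSMUSG00000053560, chromosome 8, 84661331 to 84662852, minus strand) had 2360 and 2842 counts, or 32.2 CPM in the control library and 22.0 CPM after knockdown. Its log2 ratio was -0.55 (-0.63 to -0.47), a 1.47-fold lower level. Ier5 (ENSMUSG00000056708, chromosome 1, 155096361 to 155099636, minus strand), whose product binds the phosphatase PP2A and promotes activity of the heat shock factor HSF1, went the other way. It had 879 counts, or 12.0 CPM, with the control shRNA. It had 3507 counts, or 27.1 CPM, after knockdown. That was 2.26-fold higher (log2 ratio 1.18, 1.07 to 1.28), and 1374 genes had a higher ratio.

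Dusp1 (ENSMUSG00000024190, chromosome 17, 26505590 to 26562128, minus strand) encodes MKP-1, a nuclear phosphatase that switches off p38 and JNK. It had the fewest counts of the 6 in the control library, 342, and 1016 after knockdown. These were 4.67 and 7.85 CPM, a 1.68-fold higher level (log2 ratio 0.75, 0.57 to 0.93). Its annotated span overlaps Ergic1 on the opposite strand and 2 processed pseudogenes, while the span of its main transcript, 2930 bases, overlaps no other gene. The sources used here do not state how counting treated strand. For the other 5 genes no overlapping gene is annotated, and for none of the 6 was another gene found whose transcript matched at 90% identity over 80 bases.

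**Figure D2:**
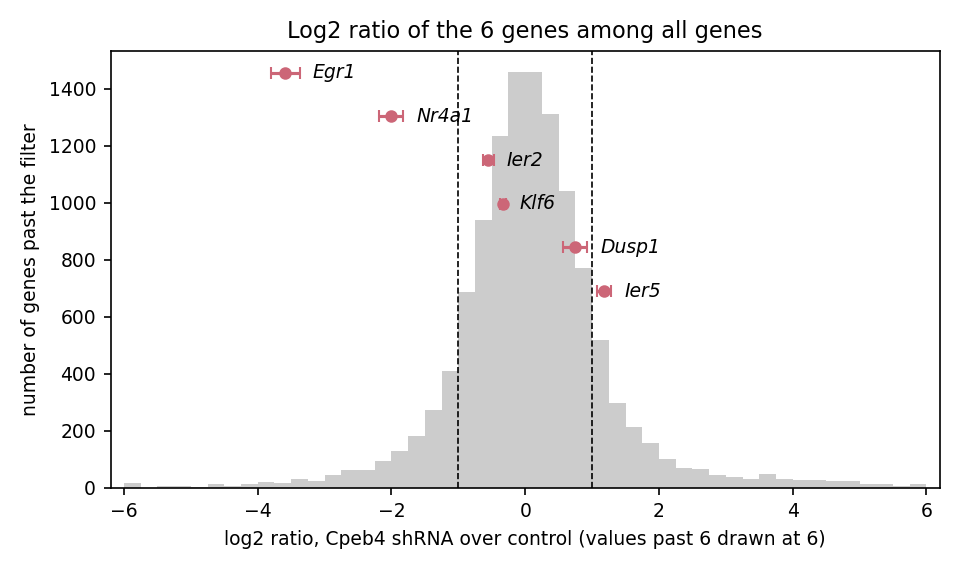
Log2 ratio of knockdown over control for the 12086 genes past the filter (grey histogram, x axis in log2 units, y axis the number of genes) with the 6 genes as red points and their 95% counting intervals. The height of the points has no meaning. Dashed lines mark 2-fold. Egr1 and Nr4a1 lie left of the lines, Ier5 right of them, and the other 3 between.

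Levels were compared between genes only as CPM per kilobase of the main transcript. In the control library the order was Klf6 (24.7), Ier2 (21.2), Nr4a1 (4.54), Egr1 (4.19), Ier5 (3.66) and Dusp1 (2.35). Nr4a1 and Egr1 overlapped in their counting intervals, 4.24 to 4.86 and 3.97 to 4.41, so their order is not settled. Egr1 also has a shorter annotated transcript of 3036 bases, by which it would be at 6.18 and in the third place. After knockdown Klf6 (19.7) and Ier2 (14.4) still led. Ier5 (8.27) and Dusp1 (3.95) came next, above Nr4a1 (1.13) and Egr1 (0.348, or 0.514 by the shorter transcript). Neighbours in that order had counting intervals that did not overlap. The lower 4 genes had thus changed places between the libraries.

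Count ratios between 2 genes of one library need no scaling. Their difference between the libraries follows from the log2 ratios of the 2 genes, so they restate those values in another form. There were 4.02 Egr1 counts per Dusp1 count in the control library and 0.199 after knockdown. The difference was 20.2-fold, with an exact conditional 95% interval of 16.6 to 24.6 for counting error. Egr1 per Ier5 differed most among the 15 pairs, at 1.56 and 0.0576, or 27.2-fold (23.0 to 32.2). Nr4a1 per Dusp1 went from 2.41 to 0.355, or 6.78-fold (5.68 to 8.10). Within the lower pair, Egr1 per Nr4a1 still moved from 1.67 to 0.560, or 2.98-fold (2.45 to 3.64). Ier2 and Klf6 kept nearly the same proportion, 0.309 and 0.264 Ier2 counts per Klf6 count (1.17-fold, 1.10 to 1.24).

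**Figure D3:**
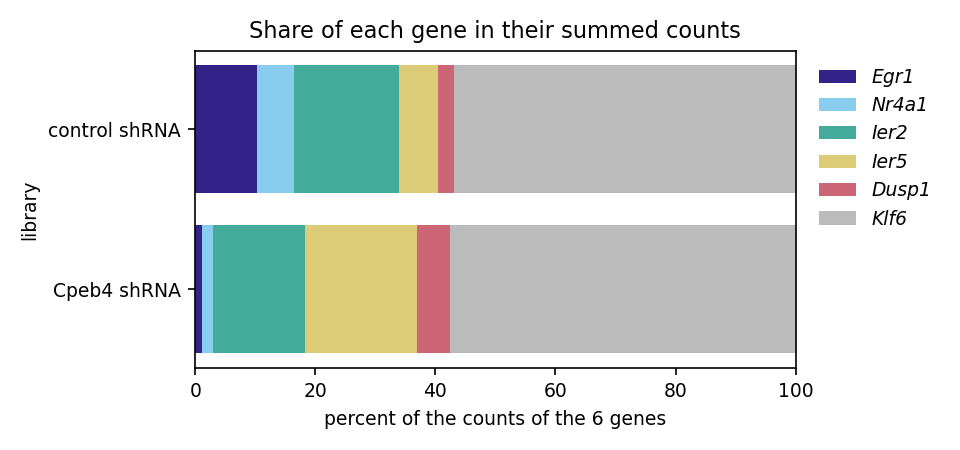
Percent of the summed counts of the 6 genes (x axis) that each gene held in the control library (upper bar, 13427 counts) and the knockdown library (lower bar, 18686 counts). Egr1 shrinks from 10.2% to 1.08% and Nr4a1 from 6.14% to 1.93%, while Ier5 grows from 6.55% to 18.8%.

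Of the summed counts of the 6 genes, Klf6 held 57.0% in the control library and 57.6% after knockdown. Ier2 held 17.6% and 15.2%, and Dusp1 2.55% and 5.44%. The place that Egr1 and Nr4a1 had held in the control library was taken mainly by Ier5. The summed level of the 6 genes was 183 CPM with the control shRNA and 144 CPM after knockdown, a log2 ratio of -0.34.

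The relatives of Egr1 and Nr4a1 that passed the filter, Egr3 and Nr4a2, lay within 2-fold. Egr3 had 208 and 429 counts, or 2.84 and 3.32 CPM (log2 ratio 0.22, counting interval -0.02 to 0.47). Egr2, a factor induced by M-CSF and RANKL in osteoclast precursors, had 7 and 63 counts, a mean under 1 CPM, for a log2 ratio of 2.35 (1.22 to 3.72). Egr4 is not analysed here. Egr1 thus went from 6.61 counts per Egr3 count in the control library to 0.471 after knockdown. The corepressor gene Nab2, a known EGR target whose product in turn holds EGR proteins in check, was lower, with 851 and 505 counts (-1.57, -1.74 to -1.41). It overlaps Stat6 and Nemp1 on the opposite strand. Its relative Nab1 had 5795 and 6220 counts (-0.72).

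Nr4a2, which encodes Nurr1, had 718 counts with the control shRNA and 1109 after knockdown, or 9.80 and 8.57 CPM. Its log2 ratio was -0.19, and 0.04 by total counts, so its direction depends on scaling. Nr4a3 had 12 and 9 counts, too few to place. There were 1.15 Nr4a1 counts per Nr4a2 count in the control library and 0.326 after knockdown, a 3.53-fold difference (3.01 to 4.13). Nr4a1 was the only member of its family that was at least 2-fold lower among the 2 that passed the filter.

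Among the IER genes, Ier5l, a relative of Ier5, had 100 counts with the control shRNA and 11 after knockdown. Its log2 ratio was -4.01 (-5.05 to -3.10), opposite in sign to that of Ier5, at a mean level under 1 CPM. Ier3, an early gene tied to ERK signalling and cell survival, had 52 and 90 counts (-0.03). Ier3ip1, named for binding the Ier3 protein and active in the endoplasmic reticulum, was at -0.67.

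The 8 MAP kinase phosphatase genes past the filter, Dusp1 among them, had a median of -0.15. Of these 2 were lower by at least 2-fold (25%, against 11.8% of all genes) and 0 were higher (against 14.6%). By total counts 1 was lower and 1, Dusp2, was higher, with a median of 0.09. Dusp4, a nuclear ERK phosphatase gene, had 35381 and 22312 counts, or 483 and 172 CPM (-1.49), and Dusp7 was at -1.13. Dusp2 (0.81) and Dusp1 (0.75) had the highest ratios in the list. There were 4.71-fold more Dusp1 counts per Dusp4 count after knockdown (4.16 to 5.35). Of the 11 Krüppel-like genes past the filter 1 was lower (9.09%, against 11.8% of all genes) and 3 were higher (27.3%, against 14.6%). Klf4, among the 3, passed the filter only through its high library. Klf3 (-2.08) and Klf13 (-0.72) were lowest, and Klf4 (1.19, from 53 and 214 counts) and Klf16 (1.16) highest. Klf6 stood near the list's median of -0.17, which was 0.07 by total counts.

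**Figure D4:**
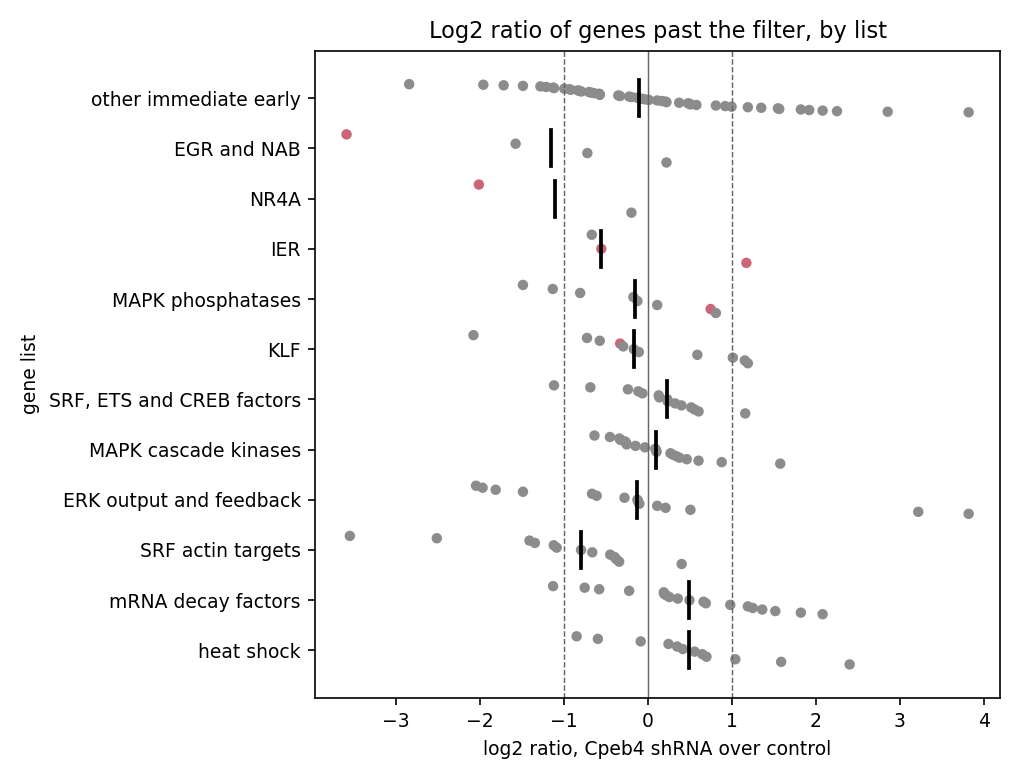
Log2 ratio of knockdown over control (x axis) for genes past the filter in each gene list (rows), with the 6 genes in red, other genes in grey and a black bar at the median. Dashed lines mark 2-fold. The vertical spread within a row only separates points. Lists overlap. The other immediate early genes stretch from -2.84 to 3.82 around a median of -0.11.

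A wider list held 68 other immediate early genes, of which the table listed 63 and the filter kept 51. Of the 51, 8 were at least 2-fold lower (15.7%, against 11.8% of all genes) and 10 at least 2-fold higher (19.6%, against 14.6%). Their median was -0.11, and 0.15 by total counts. The lowest were Hbegf, the gene of an EGF-family growth factor, with 5084 and 1253 counts (-2.84), and the kinase gene Plk3 (-1.96). The highest were Fosl1, with 10 and 250 counts (3.82, 2.92 to 4.90), and Myc, with 1481 and 18976 counts (2.86). Fosl1 was at 0.137 and 1.93 CPM, so it passed the filter only through the library in which it was high, and it had to differ. Tpm2, Etv4, Klf4, Btg2, Hspa1b and Rps6ka2 were likewise under 1 CPM in the library in which they were low. Lists overlap, so Fosl1 was not the only 1 of the 10 that could pass in this way. Btg2, itself an immediate early gene, was at least 2-fold higher (2.08), as was Klf4 (1.19). Egr1, at -3.59, was below every one of the 51, and Nr4a1, at -2.01, was below all but Hbegf. Of the AP-1 genes, Fos was at 0.37, Junb at 0.999, Jun at -0.83 and Jund at -0.70. Fosb, which did not pass the filter, had 16 and 4 counts and was at -2.82, below Nr4a1. Egr1 per Fos count was 15.6-fold lower after knockdown (13.4 to 18.2).

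Factors and kinases upstream of these genes were read from lists of their own. Srf had 4201 and 7102 counts, or 57.4 and 54.9 CPM (-0.06, and 0.17 by total counts). The 15 genes for SRF, its ETS and MRTF partners, and CREB factors with their coactivators had a median of 0.23. At 2-fold 1 was lower (0 by total counts) and 1 higher. Each was 6.67% of the list, against 11.8% of all genes lower and 14.6% higher. Crem, which encodes CREB-related activators and a repressor, was lowest (-1.12), followed by Elk3 (-0.68). Creb1 was highest, with 2233 and 8824 counts (1.16), followed by Elk4 (0.61). The 20 kinases of the MAP kinase cascades had a median of 0.10 (-0.013 by reference-gene scaling). Of these 0 were lower (against 11.8% of all genes) and 1 was higher (5%, against 14.6%, and 2 by total counts). That 1 was Rps6ka5, which encodes the CREB and histone kinase MSK1 (1.58, from 456 and 2406 counts), ahead of Rps6ka2 (0.88). Mapk3, the ERK1 gene, and Braf were lowest, at -0.63 and -0.45. These are transcript levels, and kinase activity was not measured.

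Genes known to report ERK signalling went both ways. Of 15 past the filter, 4 were at least 2-fold lower (26.7%, against 11.8% of all genes) and 2 higher (13.3%, against 14.6%). The median of the 15 was -0.12 (0.12 by total counts). The feedback inhibitor gene Spry1 had 4207 and 1801 counts (-2.05), and the ETS factor gene Etv4 was at -1.97 from 135 and 61 counts. Fosl1 (3.82) and the cyclin gene Ccnd1, with 1875 and 30924 counts (3.22), were highest and made up the 2. Fosl1 and Etv4 were each let through by their high library, and by reference-gene scaling 1 gene counted as higher. Dusp6 and Spry2, at -0.12 and -0.10, were at 0.11 and 0.13 by total counts. Actin cytoskeleton genes, which SRF controls with its MRTF partners, had a median of -0.79. Of 13 such genes 6 were lower by at least 2-fold (46.2%, against 11.8% of all genes; 4 by total counts) and 0 were higher (against 14.6%). Tpm2 (-3.55) and Cnn2 (-2.51) were lowest, and Tagln2 (0.40) and Flna (-0.34) highest. Tpm2, at 4.79 and 0.410 CPM, is among the 6 and passed the filter only through its high library.

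Factors that bind AU-rich elements or remove poly(A) tails had a median of 0.50. Of 19 such genes 6 were at least 2-fold higher (31.6%, against 14.6% of all genes) and 1 was lower (5.26%, against 11.8%). By total counts these numbers were 7 and 0. Btg2, among the 6, passed the filter only through its high library. Zfp36l1, which encodes a decay factor for AU-rich transcripts, was lowest (-1.13), followed by Tob1 (-0.75). Btg2, itself an immediate early gene, and Btg1 were highest, at 2.08 and 1.82. The 12 heat shock genes, a set that Ier5 is known to influence through HSF1, had a median of 0.49. Of these 3 were higher by at least 2-fold (25%, against 14.6%) and 0 were lower (against 11.8%). Hspa1b, among the 3, passed the filter only through its high library. Hspa1b (2.41, from 28 and 262 counts) and Hsph1 (1.59) were highest, and Bag3 (-0.85) and Dnajb1 (-0.59) lowest. Ier5 and these genes are given side by side, and a relation between them was not tested.

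The genes most like Egr1 were those nearest to it in log2 CPM in both libraries. They were the nuclear receptor gene Rxra (1366 and 177 counts, distance 0.19), Angptl2 (1404 and 242 counts, 0.26) and Rap1gap (1088 and 188 counts, 0.35). Nearest to Nr4a1 were Gm14137 (811 and 338 counts, distance 0.098), Diras1 (824 and 391 counts, 0.12) and Spsb1 (878 and 336 counts, 0.14). Of these 6 neighbours only Rxra overlaps no other annotated gene. With 2 libraries, such likeness is a description of 2 values per gene.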

How the data were processed

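RNA sequencing covered 2 libraries, 1 per group. The authors deposited whole-number read counts per gene. HISAT2 alignment to mm10 is stated per the submitters' processing notes. The sources used here name no counting tool or annotation and do not say how strand was treated. Every listed gene had at least 1 count in both libraries. Genes at 4 counts outnumbered those at 3 or 5 (585 against 444 and 286 in the control library), so the deposited counts may be estimates.

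Counts were scaled by TMM in edgeR 4.0.16 (factors 0.922 and 1.08). A mean of 1 CPM or more was required of each gene. Ratios have exact Clopper-Pearson 95% intervals of each gene's share of the 2 counts, which cover counting error only, as PCR copies are not independent molecules. The median interval was 0.16 log2 units wide. A count of 3 corresponded to 0.041 and 0.023 CPM. With 1 library per group a size rule of 2-fold replaced any test. Counts for this comparison (18622 genes) were also simulated with Poisson counting error only. Changed genes were picked only from levels well above the filter, so changes in genes just past it were not covered. All 200 genes changed 3-fold or 8-fold passed the rule, 0 others did, and 95.27% of intervals of unchanged genes held 0. Without variation between cultures, the simulation checks the calculation and cannot show how often the rule errs on real libraries. DESeq2 1.42.0 size factors, total counts, reference genes, and other filters and thresholds were tried as alternatives.

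Members and lists were chosen with earlier results of these data known. Named genes were the members, the EGR, NAB, NR4A, IER and AP-1 genes, the 2 highest and 2 lowest of each other pathway list, and the 3 genes nearest to Egr1 and to Nr4a1. Gene models came from GENCODE M21, which held 18935 of the identifiers. Main transcripts were taken by APPRIS rank, support level and length.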

Additional observations from a re-analysis of the deposited data

How the results depend on the processing

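No paired analysis was possible because there was a single library on each side and nothing was tested. Scaling adds the same amount to every log2 ratio, 0.23 for total counts, -0.015 for DESeq2 size factors and -0.11 for reference genes. None of the 6 genes changed sign or crossed 2-fold under these 3 scalings. By total counts Egr1 was at -3.355, Nr4a1 at -1.78, Ier2 at -0.32, Klf6 at -0.096, Dusp1 at 0.98 and Ier5 at 1.41. By reference genes Ier2 was at -0.66, Klf6 at -0.44 and Ier5 at 1.07. At 1.5-fold 2 of the 6 genes were higher, and at 4-fold 0 were. The numbers of all genes at least 2-fold lower and higher became 2674 and 3191 at 1.5-fold, 426 and 582 at 4-fold, 2930 and 3217 with no filter, and 907 and 1025 when 10 CPM was the required mean. Total-count scaling gave 1027 lower and 2510 higher. Among the other immediate early genes, total-count scaling gave 5 lower and 13 higher. The 1.5-fold threshold gave 17 lower and 13 higher, beside 22.1% and 26.4% of all genes. The 4-fold threshold gave 1 lower and 4 higher, beside 3.52% and 4.82%. Unfiltered, the list had 13 lower and 13 higher, and the stricter 10 CPM requirement left 7 lower and 3 higher. The median of these genes was 0.15 by total counts, -0.22 by reference genes and -0.61 at a mean of 10 CPM. Thresholds and filters set by construction how many genes can count, so the changes in number that they give are no result. The median of the other immediate early genes was also lower at a mean of 10 CPM. There the higher genes of that list fell from 10 to 3 and the lower ones from 8 to 7. The filter acts on the same 2 values that give the ratio, so the lower median is no result either. Restricted to genes past the filter, motif shares were 67.3% for ATTTA, 27.95% for TATTTAT, 54.7% for TTTTAT and 29.8% for TTTTAAT in 3′ UTRs. In promoters they were 0.993% for the CArG box, 2.74% for TGACGTCA, 27.8% for CGTCA, 0.322% for at least 4 CGTCA and 4.89% for the EGR motif. The shorter Egr1 transcript was an alternative chosen after seeing the data. The cutoffs of 4 CGTCA and 3 TATTTAT were not planned and equal the numbers that Nr4a1 and Dusp1 held, so those shares are a description. Depth limits the genes named with under 20 counts in a library, which are Nr4a3, Fosb, Egr2, Adgre1, Fosl1 and Ier5l, the last 2 with the ratios farthest from 0.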
